A study of Mus musculus with 8 samples.

Results

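Whole skin of C57BL/6 mouse embryos at embryonic day 16.5 (E16.5) was compared between wild type and animals labelled Cyp26b1-/-, with 2 RNA sequencing libraries in each group out of 8 in the series. The labels name no transgene, no Cre and no tissue restriction of the null allele for either group. The other 4 libraries are dermis and epidermis at E18.5, 1 library each of control and En1cre;Cyp26b1f/- animals, and they enter only at the end. The measure is FPKM, fragments per kilobase of transcript, scaled also to library size. The deposited E16.5 table gives 1 FPKM per group and transcript, pooled over the 2 libraries, which leaves no spread between libraries and no read depth to work from. The labels do not say whether the 2 libraries of a group came from separate embryos. Genes were taken by a fixed rule: the FPKM of all transcripts of a symbol were summed, genes with a failed estimate were dropped, and at least 1 FPKM was required in 1 group. This left 14154 of 21882 genes, after 465 had been dropped for a failed estimate and 7263 for low level.

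Retinoic acid is the active form of vitamin A. It is made from retinol by dehydrogenases of the RDH and ALDH1A families, is carried in the cell by CRABP proteins, binds the nuclear receptors RAR and RXR on DNA, and is broken down by the CYP26 cytochrome P450 enzymes. In cells that sense it, retinoic acid switches on genes for its own receptor RARβ and for its own breakdown, and in epidermis an excess of it is known to disturb cornification, the process by which keratinocytes become the dead, sealed outer layer. Cyp26b1 is the CYP26 gene best known from the mesenchyme of limb, gonad and skin. The comparison asks which skin transcripts differ when it is lost.

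Most genes had a higher FPKM in the null column, so each gene was also read against the median gene. The size of a difference is log2((null FPKM + 1)/(wild-type FPKM + 1)); its median over genes was 0.43, a ratio of 1.35, and a "relative log2" below is the gene's value minus that median. The added 1 understates the difference of genes at low level. The middle 50% of genes lay between -0.20 and 0.17 on this scale, and the range from the 5th to the 95th percentile was -0.67 to 0.52. For the test, the median deposited log2 fold of 0.475 was subtracted from each transcript's deposited fold, the result was divided by the SE implied by the authors' Cuffdiff statistic, and p-values were adjusted by Benjamini-Hochberg over all transcripts. "Rose" and "fell" are used below for genes called at an adjusted p below 0.05. On this rule 1196 genes rose, 8.45% of those measured, and 1485 fell, 10.5%. The authors' own q below 0.05, with nothing subtracted, called 8504 genes higher (60.1%) and 467 lower (3.3%), so the choice of zero decides the balance of directions. All 1196 genes that rose were also higher by the authors' q, whereas 464 of the 1485 that fell were also lower by it and 466 had a higher FPKM in null skin. For each gene list the authors' counts are therefore given beside the relative ones. Both kinds of list count are to be read against these shares of all genes. A 2-fold relative difference, with no test, was passed by 236 genes upward (1.67%) and 403 downward (2.85%). Skin markers were abundant in both groups, for example the basal keratin gene Krt5 at 1417 and 1228 FPKM and the dermal proteoglycan gene Dcn at 668 and 919.8 FPKM. Values in brackets after a gene are relative log2 values of its summed FPKM, except that a value followed by an SE is that of its most abundant tested transcript, as deposited minus 0.475. The SE is that of Cuffdiff's model for these pooled libraries and not a spread between embryos. The p-values are normal approximations from that statistic with 2 libraries per group, and no exact test over libraries could be run on pooled values.

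**Figure D1:**
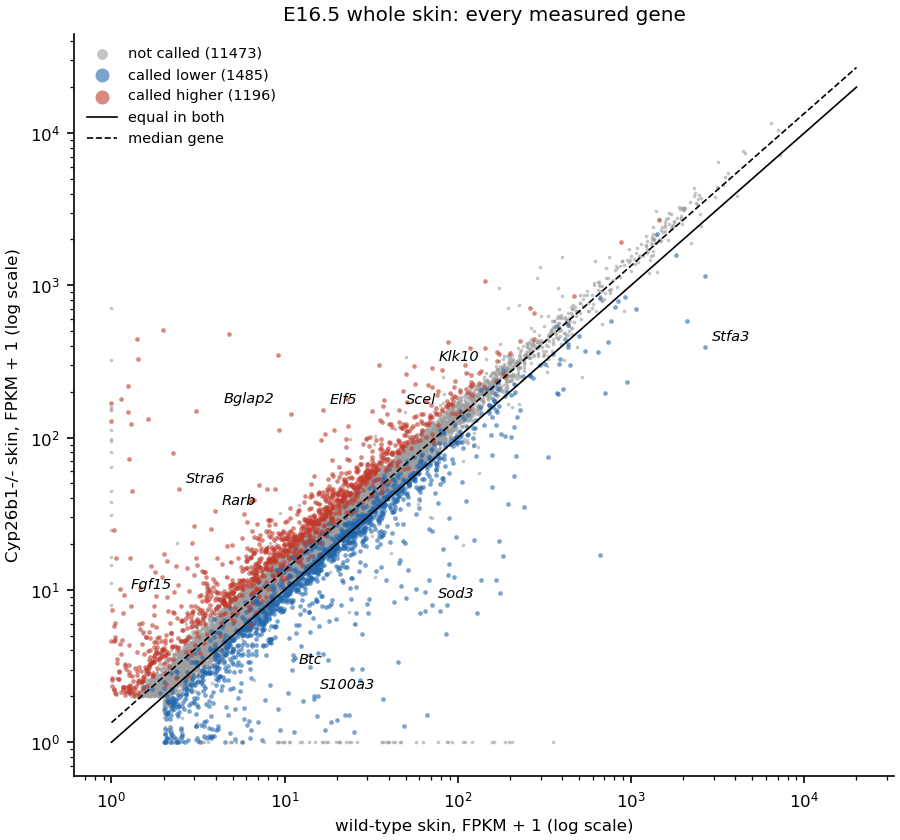
Each point is a gene, with FPKM + 1 in pooled wild-type skin on the horizontal axis and in pooled Cyp26b1-/- skin on the vertical axis, both on log scales. The cloud follows the dashed line of the median gene, 1.35 times above the solid line of equal values, with 1196 genes called higher in red and 1485 called lower in blue; grey points on the axes, listed at 0 FPKM in 1 group, include many short RNAs.

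The targeted gene was not lower as a whole in the null column. Cyp26b1 (chr6:84521408-84543902 in mm9, the build of the files) has 2 transcripts in the table. For NM_001177713 the authors' deposited table lists 19.4 FPKM in wild type and 14.4 in null skin, with a log2 fold of -0.44 (SE 0.15 implied, q = 0.009). For NM_175475 it lists 15.5 and 43.8 FPKM, with a log2 fold of 1.5 (SE 0.14 implied). The 2 transcripts moved in opposite directions, so the gene has no single call. The labels do not name the exons that the allele lacks, and values for whole transcripts do not show a missing exon, so these values do not check the genotype.

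Most measured genes of the retinoic acid response list rose in null skin. Rarb, which encodes the receptor RARβ and lies at chr14:17263354-17407724 (mm9), rose from 2.98 FPKM to 32, a relative log2 of 2.95, SE 0.20, and adjusted p = 3.92e-49 from the authors' statistic. Stra6, the cell-surface receptor that takes up retinol from its carrier in blood, at chr9:57976895-58001804 (mm9), rose from 1.47 FPKM to 44.8. Its most abundant transcript had a relative log2 of 4.35, SE 0.28, and adjusted p = 4.85e-52 from the authors' statistic. Of the 13 measured genes in the response list 8 rose and 1 fell, and the authors' deposited table has 11 higher and 1 lower. The list's median relative log2 was 0.56, against 0 for all genes by construction. Dhrs3, which reduces retinaldehyde back to retinol, rose from 44.5 FPKM to 126 (relative log2 1.05). Crabp2, the protein that hands retinoic acid to RAR, rose from 64.2 FPKM to 172 (0.98). Tgm2, a transglutaminase induced by retinoic acid in many cells, rose from 16.1 FPKM to 34.3 (0.62). Other risers were Nrip1, a corepressor of nuclear receptors, 2.15 and 5.25 FPKM, and Nr2f2, an orphan receptor, 11.5 and 20.6 FPKM in wild-type and null skin. Nr2f2 was called through a transcript other than its most abundant, which did not pass the test (0.295, SE 0.15). The exception was Rarres1, named for its induction by a synthetic retinoid in human cells, which fell from 26.3 FPKM to 14.3. Meis1, Rarres2 and Nr2f1 did not pass the test, with relative log2 values from -0.38 to 0.05.

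The other CYP26 enzymes were near or below the level filter. Cyp26a1, the family member most directly induced by retinoic acid, was at 0.18 FPKM in wild type and 0.97 FPKM in null skin. Its transcript had a relative log2 of 1.95 (SE 0.53), with adjusted p = 0.0029 from the authors' statistic. Cyp26c1 was listed at 0 FPKM in wild type and 0.28 FPKM in null skin. Neither reached 1 FPKM, so neither is among the 14154 genes.

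Rarb and Cyp26a1 are the textbook genes with a retinoic acid response element at the promoter, and their sequences are shown because they were the only 2 of the 13 genes of the response list with a promoter in the RefSeq table (GRCm38.p6) that held the element searched for. It was a direct repeat of a half-site, with any 5 bases between the copies, on either strand. Allowed half-sites were AGGTCA, the variant AGTTCA, the variant GGGTCA and the variant GGTTCA, in any pairing. Such a repeat was present in 32 of 32851 promoter windows of 250 bases before to 50 bases after the start, or 0.0974%. The 120 bases shown run 5′ to 3′ on the strand of the gene, with the repeat in capitals.
Rarb, chr14:16575477-16575596, minus strand: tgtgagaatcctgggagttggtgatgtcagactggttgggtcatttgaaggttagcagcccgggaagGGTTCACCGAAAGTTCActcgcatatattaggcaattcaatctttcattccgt
Cyp26a1, chr19:37697688-37697807, plus strand: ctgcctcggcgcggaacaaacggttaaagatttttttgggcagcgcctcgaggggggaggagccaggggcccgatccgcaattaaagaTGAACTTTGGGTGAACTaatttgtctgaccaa
In Rarb the repeat ends 37 bases before the start of transcription. In Cyp26a1 it reads on the opposite strand and ends 16 bases before the start. The match is a description of these letters, and binding was not measured. No such repeat was in the windows of Stra6 or Dhrs3.

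**Figure D2:**
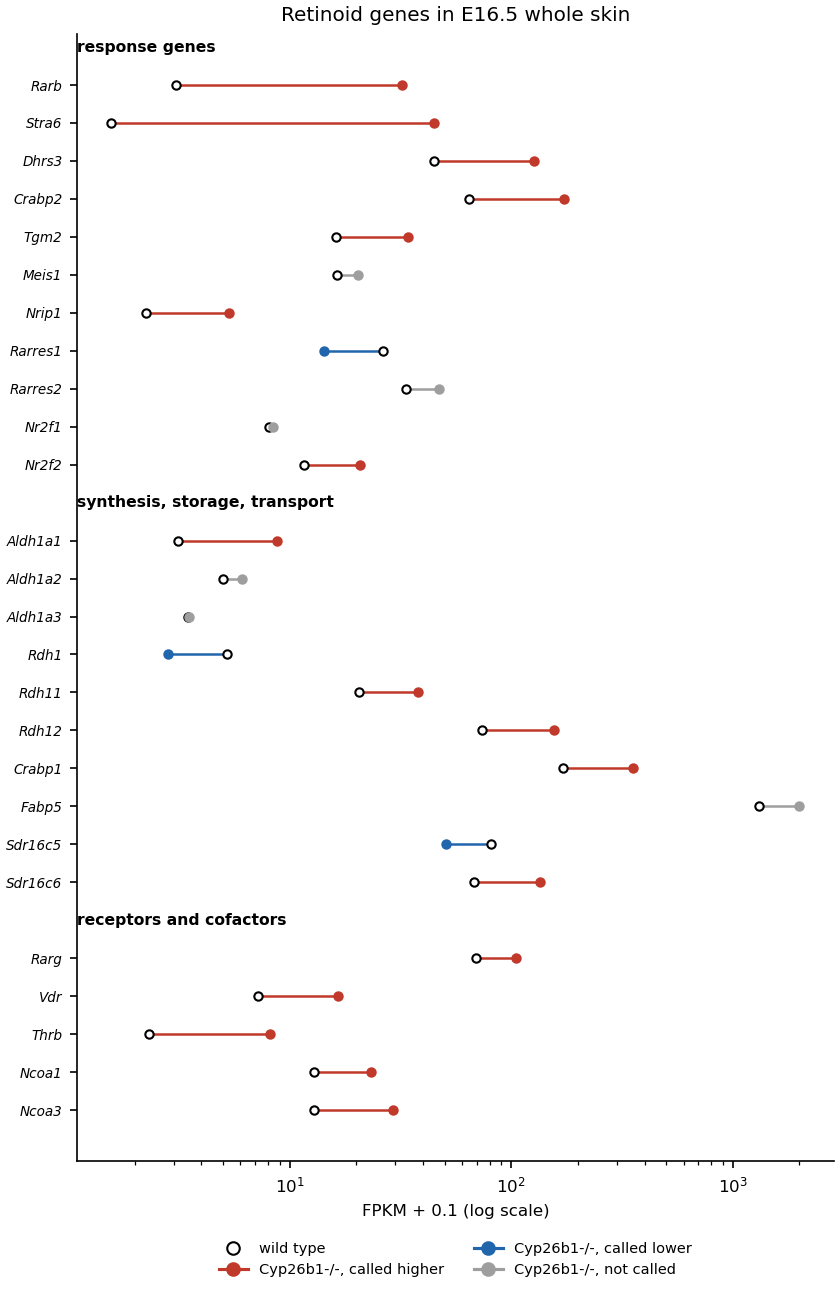
FPKM + 0.1 on a log axis for the measured retinoid genes that the text names, with wild type as open circles and Cyp26b1-/- as filled circles coloured by call. Rarb and Stra6 stand apart by the length of their lines.

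Genes that make, store and carry retinoids moved in both directions. Of 21 measured members 6 rose and 4 fell, and the authors' deposited table has 9 higher and 2 lower; with genes compared only to genes of like GC content, 3 rose. Aldh1a1, a retinaldehyde dehydrogenase, rose from 3.04 FPKM to 8.68 (0.83), whereas the other 2 enzymes of that step, Aldh1a2 at 4.88 and 6.01 FPKM and Aldh1a3 at 3.37 and 3.41 FPKM, did not pass the test. The retinal reductase genes Rdh12 (73.7 and 156 FPKM) and Rdh11 (20.4 and 37.9 FPKM) rose. Crabp1, which binds retinoic acid in the cytoplasm, rose from 171 FPKM to 355 (0.62). The paired genes Sdr16c6 and Sdr16c5 went opposite ways: Sdr16c6 rose from 67.8 FPKM to 134, and Sdr16c5, a retinol dehydrogenase, fell from 81 FPKM to 50.7. Rdh1, another retinol dehydrogenase, fell from 5.14 FPKM to 2.73 (-1.15). Fabp5, a fatty acid carrier that also binds retinoic acid and the most abundant member, was at 1314 and 1997 FPKM and did not pass the test.

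Among the nuclear receptors and their cofactors, 6 of 19 rose and 5 fell, and the authors' deposited table has 7 higher and 0 lower. Thrb, a thyroid hormone receptor, rose from 2.22 FPKM to 8.07 (1.07), and the vitamin D receptor gene Vdr rose from 7.08 FPKM to 16.4 (0.68). The coactivator genes Ncoa3 (12.8 and 29.1 FPKM) and Ncoa1 (12.8 and 23.1 FPKM) rose. Rarg, the main RAR of epidermis, rose from 69.6 FPKM to 105, through 1 of its 2 transcripts (relative log2 0.39, SE 0.14, adjusted p = 0.044 from the authors' statistic). Rara had a failed estimate.

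Genes of the eye, and some of bone and nerve, were also higher in the same null column. Of 15 measured lens crystallins 14 rose (15 higher and 0 lower by the authors' q), and their summed level went from 68.9 to 2988 FPKM; Cryga alone went from 0.4 FPKM to 446. The exception, Cryab at 57.8 and 83.6 FPKM, is expressed in muscle as well and did not pass the test. Of 13 measured lens membrane, eye field and retina genes 12 rose (13 higher and 0 lower by the authors' q), among them Pax6 (0.77 and 6.82 FPKM) and the lens channel gene Mip (0.28 and 15.1 FPKM). Their sum went from 7.71 to 96.8 FPKM. In the cornea list 1 of 3 measured fell and 0 rose (2 higher and 1 lower by the authors' q). Slurp1, also made by keratinocytes, fell from 8.43 FPKM to 0.21, and Krt12, the keratin of corneal epithelium, was at 1.09 and 2.86 FPKM without passing the test. Of 12 measured bone and osteoclast genes 4 rose and 2 were called lower, and the authors' deposited table has 5 higher and 0 lower. Runx2 was called lower through a transcript other than its most abundant, and its summed level was 5.39 and 8.2 FPKM. The osteocalcin genes Bglap2 and Bglap rose from 9.81 FPKM to 143 and from 8.3 FPKM to 111. The osteoclast phosphatase gene Acp5 rose from 30.9 FPKM to 148, and the bone sialoprotein gene Ibsp rose from 28.4 FPKM to 59.7. Sp7, a regulator of osteoblasts (4.27 and 6.02 FPKM), and Dmp1, of osteocytes (2.34 and 2.35 FPKM), did not pass the test. Osteocalcin copies are near-identical and may share reads. Of 12 cartilage genes 1 rose, Col2a1 (4.76 and 9.08 FPKM), and 1 was called lower (8 higher and 0 lower by the authors' q). Among all genes 8.45% rose and 10.5% fell. Of 14 measured Schwann cell and nerve genes 3 rose and 2 were called lower, and the authors' deposited table has 6 higher and 1 lower, with a median relative log2 of -0.09. Mbp, called lower through a transcript other than its most abundant, had a summed level of 13.1 and 18.6 FPKM. The neuronal genes Nefl (1.27 and 6.21 FPKM), Nefm (0.4 and 2.89 FPKM) and Tubb3 (5.29 and 15.1 FPKM) rose, whereas Egr2, which drives myelination in Schwann cells, fell from 4.55 FPKM to 1.93. The 4 Y-linked genes measured also rose, for example Eif2s3y from 21.5 FPKM to 57.8. Xist, from the inactive X chromosome, was at 8.12 and 7.77 FPKM and called lower relative to the median (-0.54, SE 0.12); the 5 sex-linked genes were 4 higher and 0 lower by the authors' q. Stra6, Rarb and Crabp1 are expressed in eye or nerve too, and the part that such tissue or the sex of the embryos has in any difference given here was not tested.

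Hox genes, whose order in 4 clusters matches their order of expression along the body, moved mainly in 1 cluster. Of 26 measured members 6 rose and 1 fell, and the authors' deposited table has 13 higher and 1 lower; another 13 were below 1 FPKM. In the HoxC cluster on chromosome 15, 4 of 6 measured members rose. Hoxc5 rose from 2.87 FPKM to 10.8, a relative log2 of 1.45, SE 0.21, with adjusted p = 6.06e-10 from the authors' statistic. Its neighbour Hoxc4 rose from 6.39 FPKM to 20.2 (1.19, SE 0.19). Hoxc8 rose from 1.86 FPKM to 6.86 and Hoxc6 from 6.14 FPKM to 13.2, Hoxc10 was at 2.74 and 3.48 FPKM, and Hoxc13, at the other end of the cluster and a regulator of hair keratins, fell from 2.77 FPKM to 1 (-1.34). HoxA and HoxB had 1 riser each of 7 measured, Hoxa5 (3.38 and 7.98 FPKM) and Hoxb2 (7.54 and 15.3 FPKM). No HoxD gene passed the test in either direction of 6 measured, from Hoxd1 at 0.99 and 1.41 FPKM to Hoxd10 at 1.12 and 0.72 FPKM. The median relative log2 was 0.80 in HoxC, 0.15 in HoxA, 0.07 in HoxB and -0.31 in HoxD; with nothing subtracted the last was 0.12. Transcripts of neighbouring HoxC genes overlap in the genome, and their reads may not be fully separable.

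**Figure D3:**
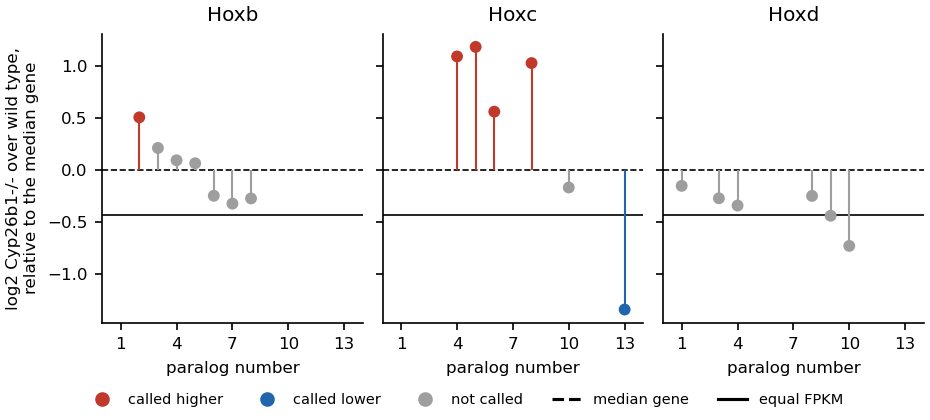
Relative log2 of null over wild type against paralog number in the HoxB, HoxC and HoxD clusters, coloured by call, with the median gene as a dashed line and equal FPKM as a solid line. Hoxc4, Hoxc5, Hoxc6 and Hoxc8 stand above the median gene and Hoxc13 below it, while all 6 measured HoxD genes lie below the dashed line without passing the test.

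Keratins of the hair follicle were lower in null skin. The follicle is an epidermal downgrowth whose matrix cells form a keratinised shaft and, around it, the inner root sheath. All 6 inner root sheath keratins measured fell, and with trichohyalin the list was 1 higher and 6 lower by the authors' q: Krt71 from 47.9 FPKM to 0.28 (-5.68), Krt25 from 36 FPKM to 0.92, Krt27 from 27 FPKM to 2.04, Krt28 from 5.38 FPKM to 0.21, Krt73 from 5.21 FPKM to 0.37 and Krt26 from 1.55 FPKM to 0.02. Tchh, trichohyalin, which is found in the inner root sheath and also in other epithelia, rose from 22.5 FPKM to 58. Among hair shaft and matrix keratins 10 of 11 measured fell and 0 rose, and the authors' deposited table has 0 higher and 9 lower. Krt85, the earliest shaft keratin, fell from 4.14 FPKM to 0.05, and Krt35 from 4.8 FPKM to 0.43. Keratin-associated proteins, the matrix between shaft keratins, had 22 of 25 measured fall and 0 rise (0 higher and 22 lower by the authors' q), led by Krtap3-2 (24.1 and 0.17 FPKM) and Krtap3-3 (14.4 and 0.48 FPKM). Krtap13, by far the most abundant, was at 2509 and 2941 FPKM and did not pass the test. At this age most shaft genes were still low in wild type, and 26 of 51 keratin-associated protein genes were below 1 FPKM in both groups. The sizes depend on the added value: with 0.1 or 5 added in place of 1, the shaft and matrix keratin median of -1.77 became -2.99 or -0.79. No shaft or matrix keratin and 7 keratin-associated protein genes reached 5 FPKM in a group, so a filter there leaves 0 and 5 lower calls.

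Follicle regulators had a median relative log2 of -0.47, against -1.77 for shaft and matrix keratins. With nothing subtracted these medians were -0.045 and -1.35. Of 18 measured epithelial regulators and stem markers 11 fell and 1 rose, and the authors' deposited table has 5 higher and 6 lower. Lhx2, a regulator of follicle stem cells, fell from 10.6 FPKM to 4.85 (-1.60, SE 0.21), Foxn1, which drives shaft keratins, from 5.12 FPKM to 2.97, and Lgr6, a stem cell receptor, from 7.93 FPKM to 4.78. Sox21 (3.13 and 1.69 FPKM) and Dlx3 (24.1 and 16.5 FPKM), both of the hair matrix, also fell. Sox9, needed for the outer root sheath, rose from 6.97 FPKM to 14.5 (0.53). Dermal condensate and papilla genes, which mark the mesenchyme that instructs the follicle, had 8 of 21 fall and 0 rise, and the authors' deposited table has 4 higher and 4 lower: Trps1 (8.77 and 6.29 FPKM), Sox18 (41.8 and 31.8 FPKM) and Enpp2 (27.1 and 23.2 FPKM) were the lowest, and Sox2 was at 2.15 and 3.26 FPKM with a relative log2 of 0.01. In bulk tissue, fewer cells of a type and less RNA per cell cannot be told apart.

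Most genes in each list of signals that shape the follicle were not called relative to the median. For scale, 8.45% of all genes rose and 10.5% fell. Hedgehog pathway genes included no riser and 3 of 12 called lower, and the authors' deposited table has 3 higher and 0 lower; the ligand Shh was at 4.79 and 4.31 FPKM and its target Gli1 at 46.6 and 42.5 FPKM, both called lower relative to the median but not by the authors' q. Of 15 Wnt ligands 2 rose and 3 fell (6 higher and 1 lower by the authors' q): Wnt10a (7.66 and 16.4 FPKM) and Wnt6 (19.2 and 37.8 FPKM) rose, while Wnt16 fell from 11.6 FPKM to 8.34. Wnt inhibitors and targets had 3 of 23 rise and 7 called lower, and the authors' deposited table has 11 higher and 0 lower. Bambi, a decoy receptor that dampens TGFβ and BMP signals, rose from 7.05 FPKM to 27.9 (1.51, SE 0.15). The secreted Wnt antagonists Sfrp5 and Dkk4, the latter a mark of hair placodes, rose from 9.74 FPKM to 33.3 and from 5.06 FPKM to 14.5. In ectodysplasin and BMP signalling 1 of 24 rose and 6 fell, and the authors' deposited table has 7 higher and 1 lower: the inhibitory Smad gene Smad6 rose from 5.03 FPKM to 12.9, and Id4 fell from 25.7 FPKM to 12.2 (-1.44) while Id1, Id2 and Id3 did not pass the test at relative log2 values of 0.17, 0.25 and 0.15. Edar, the ectodysplasin receptor of placodes, was at 8.36 and 8.92 FPKM.

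Ligands of the EGF receptor went in opposite directions. Betacellulin, Btc, fell from 10.04 FPKM to 1.96 (-2.83, SE 0.25), whereas amphiregulin, Areg, rose from 1.52 FPKM to 5.26 and epigen, Epgn, from 0.94 FPKM to 2.64. The receptor Egfr rose from 8.55 FPKM to 20.6 and its feedback inhibitor Errfi1 from 39.2 FPKM to 92.1. In all 4 of 12 measured members rose and 2 fell, and the authors' deposited table has 10 higher and 1 lower. Of 21 FGF genes 2 rose and 5 fell, against 8.45% and 10.5% of all genes, and the authors' deposited table has 7 higher and 0 lower. Fgf15, which is expressed in embryonic retina as well, rose from 0.18 FPKM to 8.24 (2.54). Fgf22, an inner root sheath ligand, was called lower at 27.3 and 19.9 FPKM. In the Notch pathway the target Hes1 rose from 47 FPKM to 122 (0.93), 3 of 20 members were called lower (8 higher and 0 lower by the authors' q), and the receptor Notch1 was at 30.8 and 48.4 FPKM without passing the test. The summed relative log2 of 1 called Notch pathway gene had the opposite sign to its call.

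Epidermal transcription factors moved in both directions. Of 25 measured 6 rose and 9 fell, and the authors' deposited table has 15 higher and 4 lower. In 1 of these called genes the summed relative log2 had the opposite sign to the call. Elf5, an ETS factor of glandular and differentiating epithelia (chr2:103252255-103291145, mm9), rose from 15.7 FPKM to 151, a relative log2 of 2.94, SE 0.15 for its main transcript, with adjusted p = 2.08e-78 from the authors' statistic. The related factors Elf3 and Ehf rose from 7.83 FPKM to 26.2 and from 14.8 FPKM to 43.1. Dlx5, a homeobox gene, rose from 21.5 FPKM to 97.4 (1.78, SE 0.16). In the other direction the POU factor Pou3f1 fell from 17.1 FPKM to 5.28 (-1.95). Klf4, a barrier regulator, was at 159 and 157 FPKM, nearly equal in both groups and called lower relative to the median. Hopx (157 and 226 FPKM) and Grhl3 (81.8 and 136 FPKM) did not pass the test.

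The layers of the epidermis changed in part. In the basal layer 5 of 16 measured genes fell and 0 rose, and the authors' deposited table has 6 higher and 2 lower. Krt14, the basal keratin, fell from 734 FPKM to 426 (-1.26, SE 0.18, adjusted p = 6.23e-11 from the authors' statistic), while its partner Krt5 was at 1417 and 1228 FPKM and did not pass the test. Lamb3, a laminin chain of the basement membrane, fell from 19.8 FPKM to 13, and Krt15 was at 645 and 1057 FPKM. Krt1 and Krt10, the spinous keratins, had failed estimates and cannot be read. Of 10 other spinous genes 6 fell and 0 rose, and the authors' deposited table has 2 higher and 5 lower: the calmodulin-like genes Calm4 and Calml3 fell from 2685 FPKM to 1142 and from 442 FPKM to 298, and Krt77 from 1069 FPKM to 702. Ly6d and the cadherin gene Dsg1a fell too, from 765 FPKM to 581 and from 123 FPKM to 88.7. Dsc1 (126 and 129 FPKM) was lower only relative to the median. Krtdap (4452 and 7637 FPKM), Dmkn (3051 and 3793 FPKM), Sbsn (1333 and 1582 FPKM) and Lypd3 (155 and 185 FPKM) did not pass the test.

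The cornified envelope, the protein shell of dead keratinocytes, differed between gene families. All 12 late cornified envelope 1 genes fell (0 higher and 12 lower by the authors' q), with a summed level of 2196 FPKM in wild type and 204 FPKM in null skin; Lce1m fell from 660.1 FPKM to 15.8. All 4 late cornified envelope 3 genes rose (4 higher and 0 lower by the authors' q): Lce3f from 86.2 FPKM to 421 (1.85), Lce3c from 16.8 FPKM to 52.6, Lce3a from 5.51 FPKM to 38 and Lce3b from 3.65 FPKM to 18.4. Members of each family are near-identical and may share reads. Of 13 envelope precursors and transglutaminases 3 rose and 6 fell, and the authors' deposited table has 4 higher and 4 lower. Involucrin, Ivl, an early scaffold, fell from 194 FPKM to 35.7 (-2.92, SE 0.15, adjusted p = 6.09e-79 from the authors' statistic), as did Kprp from 210.01 FPKM to 55, the protease inhibitor gene Cst6 from 13 FPKM to 4.28 and Crct1 from 644 FPKM to 365. The plakin genes Evpl and Ppl, whose products anchor keratin to the envelope, rose from 142 FPKM to 387 and from 275 FPKM to 661, and sciellin, Scel, rose from 44.9 FPKM to 149.9 (1.27, SE 0.14). Loricrin, Lor, the main envelope protein, was at 2519 and 2434 FPKM and did not pass the test. The cross-linking enzyme gene Tgm1 was at 113 and 263 FPKM over 3 transcripts. Its main transcript was higher (0.82, SE 0.15) and a minor one lower, so the gene has no single call. Small proline-rich proteins had 4 of 10 fall and 0 rise, and the authors' deposited table has 2 higher and 3 lower: Sprr2h fell from 3.86 FPKM to 0.15, Sprr2d from 4.55 FPKM to 1.18 and Sprr1a from 375 FPKM to 192, while Sprr1b was at 228 and 285 FPKM.

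Filaggrin family and processing genes were mostly lower, and no value is given here for the filaggrin gene Flg itself. Filaggrin-type proteins bundle keratin and are then cut to the amino acids that hold water in the outer skin. Of 15 measured 11 fell and 2 rose, and the authors' deposited table has 3 higher and 9 lower. Hal, histidase, which turns histidine into urocanic acid, fell from 22.5 FPKM to 0.51 (-5.94, SE 0.32). Blmh, the bleomycin hydrolase that completes the breakdown of filaggrin, fell from 405 FPKM to 207. Flg2 (6.51 and 3.27 FPKM), Rptn (2.11 and 0.75 FPKM) and Tchhl1 (2.8 and 0.1 FPKM) fell, and Crnn, a relative expressed in mucosal epithelium, rose from 3 FPKM to 7.87. The deiminases split, with Padi3 falling from 2.46 FPKM to 1.03 and Padi1 rising from 0.79 FPKM to 2.81. The protease gene Asprv1 (2209 and 1887 FPKM) did not pass the test.

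Kallikrein genes of shedding went both ways within 1 cluster, and those that rose lie side by side in it. Kallikreins cut the corneodesmosomes that hold dead cells together. Klk7 and Klk5, the main such enzymes, fell from 127 FPKM to 6 (-4.88, SE 0.21, adjusted p = 2.40e-113 from the authors' statistic) and from 88 FPKM to 13.8 (-3.15, SE 0.19), and their substrate corneodesmosin, Cdsn, fell from 122 FPKM to 20.2. Klk10 rose from 70.3 FPKM to 287 (1.55, SE 0.14), Klk13 from 48.5 FPKM to 119 (0.85), Klk11 from 46.5 FPKM to 87.1 and Klk12 from 0.47 FPKM to 9.23 (2.37). The inhibitor gene Spink5 fell from 73.5 FPKM to 55.6. In all 4 of 15 rose and 5 fell, and the authors' deposited table has 8 higher and 5 lower.

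**Figure D4:**
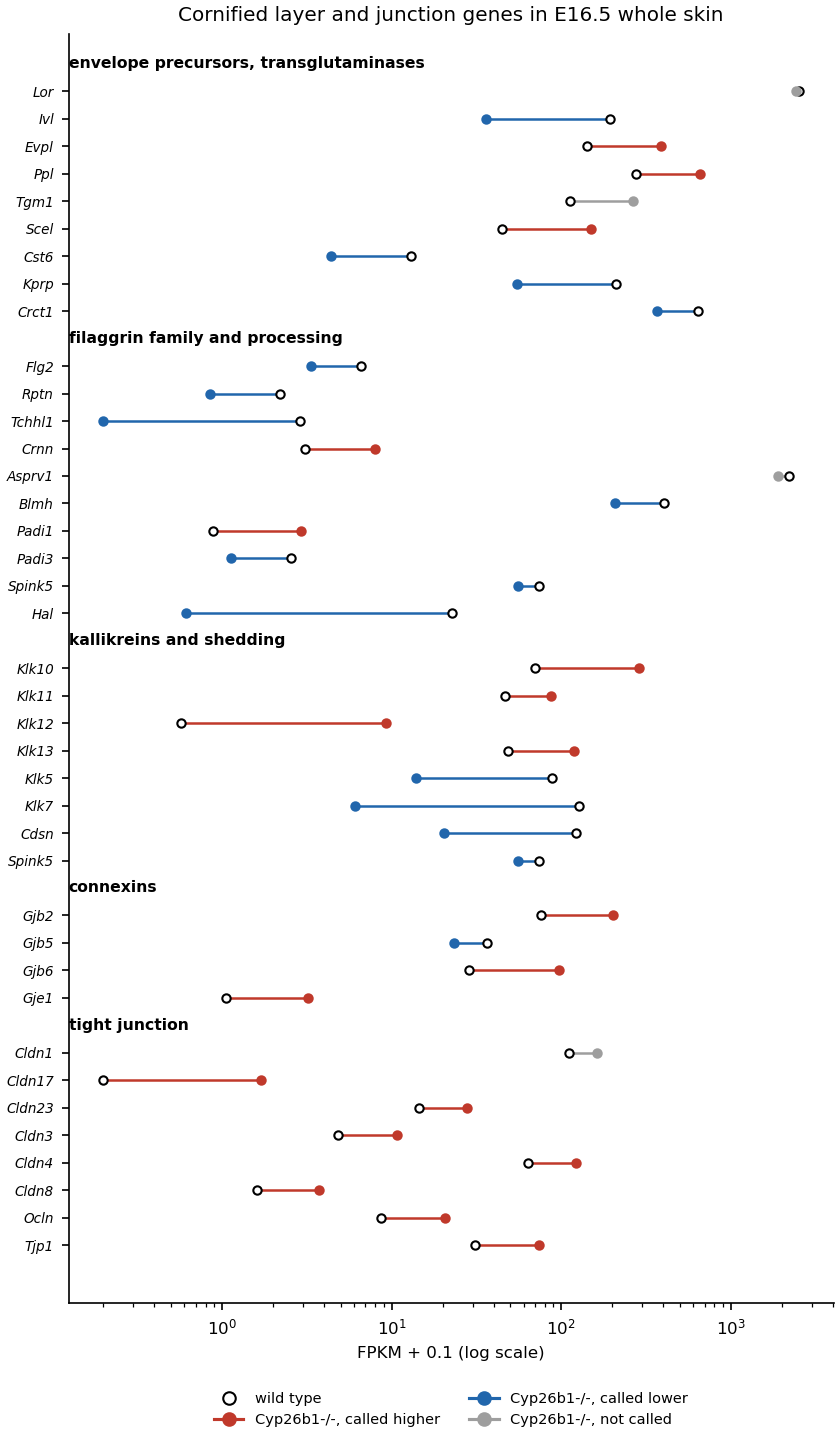
FPKM + 0.1 on a log axis for the members of 5 lists that the text names, with wild type as open circles and Cyp26b1-/- as filled circles coloured by call. Within the kallikreins Klk5 and Klk7 lie far to the left in null skin and Klk10, Klk12 and Klk13 to the right, and none of the tight junction genes shown is called lower.

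Tight junction genes rose in part. Of 19 measured tight junction genes 8 rose and 0 fell, and the authors' deposited table has 13 higher and 0 lower, for a median relative log2 of 0.26. Occludin, Ocln, rose from 8.6 FPKM to 20.5, and the scaffold gene Tjp1 rose from 31 FPKM to 74. The claudins that rose were Cldn4 (63.5 and 121 FPKM), Cldn23 (14.5 and 27.6 FPKM), Cldn3 (4.75 and 10.7 FPKM), Cldn8 (1.52 and 3.65 FPKM) and Cldn17 (0.1 and 1.59 FPKM). Cldn1, which the epidermal barrier needs, was at 111 and 163 FPKM and did not pass the test. Of 16 connexins and pannexins 4 rose and 3 fell, and the authors' deposited table has 10 higher and 2 lower. Gjb6 and Gjb2, whose products pair in the same channels, rose from 28.6 FPKM to 96.4 (1.23, SE 0.15) and from 75.6 FPKM to 201 (0.94, SE 0.15). Gjb5, of the upper epidermal layers, fell from 36.5 FPKM to 23.1. Gje1, of lens, rose from 0.95 FPKM to 3.12. Among desmosome genes 4 of 15 rose and 4 fell, and the authors' deposited table has 5 higher and 1 lower: Dsc2 (7.07 and 21.7 FPKM), Dsg3 (7.88 and 21 FPKM) and Dsg2 (5.62 and 11.7 FPKM), isoforms of lower layers and of simple epithelia, rose.

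Keratins of other epithelia moved in both directions, and wound keratins were mostly lower. Of 8 measured simple, mucosal and periderm keratins 4 rose and 3 fell, and the authors' deposited table has 5 higher and 2 lower. Krt4, a keratin of internal stratified epithelia, rose from 55 FPKM to 295 (1.95, SE 0.15), and the simple epithelial keratins Krt19 and Krt18 rose from 69.95 FPKM to 213 and from 20.9 FPKM to 52.2, as did Krt8 (0.42). Krt7, also of simple epithelia, was at 160.2 and 241 FPKM and did not pass the test. Krt78 fell from 67.2 FPKM to 10.6, Krt23 from 201 FPKM to 100.5, and Krt13, the usual partner of Krt4, was called lower at 202 and 188 FPKM. Of 6 wound and companion layer keratins 5 fell and 0 rose (0 higher and 4 lower by the authors' q). Among them Krt16 (56 and 30.5 FPKM), Krt17 (177 and 104 FPKM), Krt6b (50.6 and 35.4 FPKM) and Krt6a (166 and 121 FPKM) fell, Krt79 was called lower at 28.2 and 23.4 FPKM, and Krt75 (3.01 and 3.17 FPKM) was not called. Of 7 measured uroplakins and mucins 3 rose (4 higher and 0 lower by the authors' q): Upk1b from 34.6 FPKM to 130.01 (1.45), Muc15 from 29.1 FPKM to 98.2 and Muc20 from 0.05 FPKM to 3.69. Upk3b (29.8 and 47.8 FPKM), Upk2 (1.47 and 1.42 FPKM), Upk1a (0.99 and 1.13 FPKM) and Muc1 (0.94 and 1.57 FPKM) did not pass the test, and the goblet cell mucin Muc2 was below 1 FPKM.

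Lipid, detoxification and defence genes moved by gene and not by family. For barrier lipids 3 of 28 measured rose and 9 fell, and the authors' deposited table has 14 higher and 4 lower: the lipase gene Lipk rose from 39.98 FPKM to 122 (1.16), Degs1, a ceramide desaturase, rose from 167 FPKM to 317, and Aloxe3, a lipoxygenase of the barrier, fell from 93.1 FPKM to 67.5. Lipn fell from 1.65 FPKM to 0.01 FPKM, and Elovl3, of sebaceous and hair lipid, fell from 1.18 FPKM to 0.42. Among glutathione transferases and oxidant response genes 7 of 28 rose and 4 fell, and the authors' deposited table has 18 higher and 1 lower. Gsta4, which clears lipid peroxide products, rose from 35.8 FPKM to 161 (1.70, SE 0.15), Gstt3 from 7.76 FPKM to 45, Mgst1 from 66.5 FPKM to 219 and Gstp1 from 110.4 FPKM to 263. Mgst2 fell from 34.4 FPKM to 18.9. In the S100 family S100a3, a protein of the hair cuticle, fell from 13.7 FPKM to 1.02 (-4.22, SE 0.42) and S100a4 from 15.4 FPKM to 6.86, while the most abundant member, S100a11, was at 973 and 1411 FPKM and did not pass the test. In all 3 of 13 S100 genes fell and 0 rose (4 higher and 2 lower by the authors' q). Clade B serpins split, with 3 of 18 rising and 8 falling (7 higher and 5 lower by the authors' q): Serpinb3b fell from 67.3 FPKM to 24.1, and its close copy Serpinb3a rose from 15.6 FPKM to 33.

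Stefins, inhibitors of cysteine proteases, were mostly lower. Of 8 measured 6 fell and 1 rose, and the authors' deposited table has 1 higher and 6 lower; their sum went from 6764 to 1782 FPKM. Stfa3 fell from 2679.8 FPKM to 389.9 (-3.26, SE 0.15), BC100530 from 2098 FPKM to 583, BC117090 from 942 FPKM to 231, Stfa1 from 709 FPKM to 195, Stfa2 from 78 FPKM to 6.25 and Csta from 50.4 FPKM to 12.4. Stfa2l1 did not pass the test at 7.14 and 4.42 FPKM, and Cstb, stefin B, rose from 199 FPKM to 359, a call lost when genes were compared with genes of like GC content. Stefin A copies are near-identical and may share reads.

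Interleukin 1 and 36 family genes gave more lower than higher calls. Of 13 measured 6 fell and 1 rose, and the authors' deposited table has 4 higher and 5 lower. Il1f8, an interleukin 36 of keratinocytes, fell from 49.2 FPKM to 7.86 (-3.12, SE 0.25), Il18 from 24.5 FPKM to 4.95 (-2.53), the decoy receptor gene Il1r2 from 13 FPKM to 2.71 and Il1f9 from 157 FPKM to 75.6. The alarmin Il33 rose from 1.95 FPKM to 5.11. Of 18 antimicrobial and acute phase genes 2 rose and 6 fell, and the authors' deposited table has 5 higher and 5 lower: the acute phase gene Saa1 fell from 21.4 FPKM to 0.52 (-4.31) and the defensin genes Defb14 and Defb4 fell from 18.9 FPKM to 5.4 and from 7.2 FPKM to 1.39, whereas Defb1, a constitutive defensin, rose from 31 FPKM to 80.2 and the antiprotease gene Slpi from 1.31 FPKM to 8.63. For chemokines 4 of 21 rose and 1 fell (8 higher and 1 lower by the authors' q), and 2 rose when genes of like GC content were compared. Ppbp, of platelets, rose from 0.7 FPKM to 13.4 (2.66), and Ccl6 from 2.52 FPKM to 10.1. Cxcl14, of epidermis, fell from 218 FPKM to 135.

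Macrophage, MHC class II and endothelial genes mostly lay near the median gene, and mast cell and erythroid genes are given below with their calls. None of 15 macrophage genes passed the relative test, whereas the authors' deposited table has 9 higher and 0 lower; their sum went from 277 to 361 FPKM, near the ratio of the median gene. Among 6 MHC class II and antigen presentation genes none passed either (3 higher and 0 lower by the authors' q): H2-Ab1 at 3.18 and 7.48 FPKM, Cd74 at 6.27 and 10.4 FPKM, H2-DMa at 2.96 and 5.47 FPKM, Cd86 at 2.65 and 2.86 FPKM, H2-Aa at 1.93 and 2.12 FPKM and H2-Eb1 at 1.09 and 1.16 FPKM. Of 17 endothelial genes 0 rose and 1 was called lower, and the authors' deposited table has 8 higher and 0 lower. Mast cell genes had 5 of 10 called lower and 0 higher, with a median relative log2 of -0.48, or -0.05 with nothing subtracted. The authors' deposited table has 2 higher and 1 lower. Mcpt4, a protease of connective tissue mast cells, fell from 13.5 FPKM to 5.5 (-1.77, SE 0.27). The protease gene Cma1 (429 and 391 FPKM) was called lower relative to the median but not by the authors' q. Cpa3, another protease gene (455 and 477 FPKM), was called by neither. Of 10 globin and erythroid genes 2 rose and 0 fell (8 higher and 0 lower by the authors' q). The adult β globin gene Hbb-b1 rose from 32.6 FPKM to 96.1 and Alas2, of haem synthesis, from 27.3 FPKM to 54.8. The other adult β globin gene, Hbb-b2, was far more abundant at 3603 and 5426 FPKM and did not pass the test. Nor did the most abundant globin, Hba-a1, at 6417 and 11652 FPKM. Globin copies are near-identical and may share reads.

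In the matrix, 2 of 32 measured collagen chains rose and 5 were called lower, against 8.45% and 10.5% of all genes. The authors' deposited table has 16 higher and 0 lower, against 60.1% and 3.3% of all genes. Col1a1, Col1a2 and Col3a1, the main chains of dermis, had failed estimates. Col8a1 rose from 13.4 FPKM to 26.6, and Col6a2 (678 and 784 FPKM) and Col6a1 (594 and 709 FPKM) did not pass the test. Of 29 proteoglycans and glycoproteins 1 rose, Ogn (67.8 and 139 FPKM), and 10 were called lower, and the authors' deposited table has 10 higher and 3 lower; Tnn, a tenascin found near follicles and bone, fell from 1.99 FPKM to 0.86. Adipocyte genes had 12 of 17 called lower and 0 higher, and the authors' deposited table has 2 higher and 4 lower, with a median relative log2 of -0.64, or -0.21 with nothing subtracted: Cfd, adipsin, fell from 7.32 FPKM to 3.77, the lipid droplet gene Cidea from 27.2 FPKM to 18.6 and the lipase gene Pnpla2 from 59.4 FPKM to 46.1. Fabp4, the most abundant, was called lower at 919.6 and 840.1 FPKM. Of 27 skeletal muscle genes 0 rose and 6 were called lower, and the authors' deposited table has 12 higher and 0 lower. Melanocyte genes had 3 of 12 called lower, among them Tyrp1, which fell from 5.5 FPKM to 3.41, and 0 higher (4 higher and 1 lower by the authors' q).

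**Figure D5:**
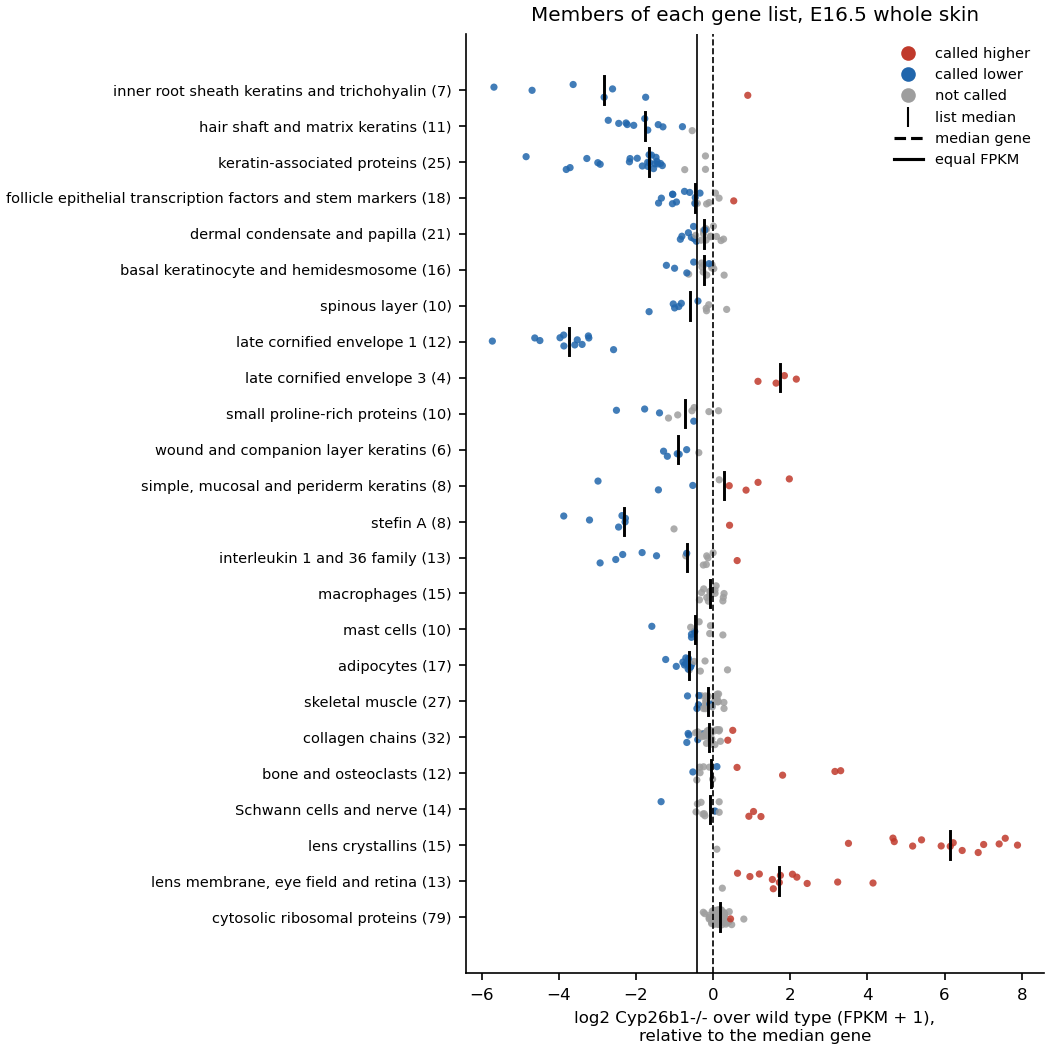
Each point is a measured gene of the list at left, with the number measured in brackets, placed by its relative log2 of null over wild type and coloured by call; a bar marks the list's median, the dashed line the median gene and the solid line equal FPKM. Inner root sheath and shaft keratins, late cornified envelope 1 genes and stefins lie to the left, crystallins far to the right, and macrophage, muscle, collagen and ribosomal protein genes around the dashed line.

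Cell cycle, ribosomal protein, imprinted and heat shock genes mostly lay near the median gene. Immediate-early genes had a median relative log2 of -0.33. Of 34 cell cycle genes 0 rose and 2 were called lower relative to the median, while the authors' deposited table has 27 higher and 0 lower, with a median relative log2 of 0.08. Of 79 cytosolic ribosomal protein genes 1 rose and 1 was called lower, while the authors' deposited table has 73 higher and 0 lower. Their median relative log2 was 0.17. The gene called lower, Rpl19, had a summed level of 1414 and 2177 FPKM, and its most abundant transcript was not called. Among 23 imprinted genes 1 rose and 1 was called lower (15 higher and 0 lower by the authors' q). Of 12 heat shock genes 1 rose, Hsph1 (20.4 and 40.5 FPKM), with 7 higher and 0 lower by the authors' q. Immediate-early genes had 9 of 22 called lower and 1 higher, and the authors' deposited table has 8 higher and 4 lower: Egr3 fell from 24.9 FPKM to 6.02 (-2.52, SE 0.23), Gadd45b from 27 FPKM to 19.7, while Fos was at 30.7 and 41.1 FPKM, a relative log2 of -0.02. Mt4, the metallothionein of stratified epithelium, fell from 3.53 FPKM to a listed 0, and Mt1 (175 and 283 FPKM), Mt2 (88.2 and 111 FPKM) and Mt3 (0.52 and 1.19 FPKM) did not pass the test; the 4 genes were 1 higher and 1 lower by the authors' q.

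Outside the lists, called single-transcript genes were ranked by FPKM with 1 added, leaving out short RNAs, predicted or clone-named genes and sex-linked genes. The largest rise among them was that of Psors1c2, a gene beside Cdsn, from 8.13 FPKM to 349.8 (4.84). By the deposited fold, with nothing added, genes near 0 FPKM in wild type such as Atoh7 stood higher. Psors1c2 and Cdsn are separate in the table, at chr17:35670146-35671592 and chr17:35689073-35694125 (mm9), and went in opposite directions. Snx31, a sorting nexin that carries uroplakins, rose from 2 FPKM to 25.3, and Gpa33, a surface antigen of intestinal epithelium, from 1 FPKM to 16.2. Vnn1, a pantetheinase, rose from 1.93 FPKM to 19.2, and the mitochondrial iron carrier gene Slc25a37 from 18.4 FPKM to 111. Atp1b1, the β subunit of the sodium pump, rose from 49.2 FPKM to 262 (1.96). Casp1, which matures interleukins, rose from 4.65 FPKM to 20.8. Atoh7, a factor of early retinal neurons, and Grifin, of lens, rose too, from 0.05 FPKM to 5.1 and from a listed 0 to 3.6 FPKM.

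In the other direction, Nccrp1 fell from 166 FPKM to 10.6 (-4.28) and Serpina12, the adipokine vaspin, from 16.2 FPKM to 0.21. Sod3, the extracellular superoxide dismutase, fell from 69.8 FPKM to 6.99 (-3.79, SE 0.19), and Npl, a sialic acid lyase, from 172 FPKM to 20.01 (-3.58, SE 0.17). Acsbg1, an acyl-CoA synthetase, fell from 56.4 FPKM to 9.15, the sphingomyelinase gene Smpd3 from 41.9 FPKM to 7.34, the cyclooxygenase gene Ptgs1 from 46 FPKM to 9.56 and Cyp2b19, a keratinocyte P450, from 155 FPKM to 46.4. Lce6a, a late envelope gene, fell from 96.4 FPKM to 21.3, and Ecm1, a matrix protein of skin, from 110.1 FPKM to 37.6. Hephl1, a copper ferroxidase linked to hair, fell from 8.17 FPKM to 0.65, and Fmo2, a monooxygenase, from 81.2 FPKM to 17.6.

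The genes 2-fold apart at E16.5 were also read in the E18.5 tables, where each group is 1 library, so values there have no test. The E18.5 mutant differs in allele, age and tissue: En1cre recombines the floxed allele in cells that have expressed Engrailed 1, and the control is Cyp26b1f/+ by the labels. Sex-linked genes also differed between the E18.5 libraries. Xist was at 9.63 FPKM in control and 0.03 in mutant dermis, and at 10.03 and 0.02 in epidermis. The Y-linked gene Eif2s3y was at 0 and 2.59 FPKM in dermis, and at 0.13 and 4.62 in epidermis. With 1 library per group, genotype and sex cannot be told apart there. Of the 403 genes at least 2-fold lower in E16.5 null skin, 287 were measured in dermis and 161 of them, 56.1%, were at least 2-fold lower there, against 13.5% of all E16.5 genes measured in dermis. In epidermis 53 of 269, 19.7%, were 2-fold lower and 41, 15.2%, were 2-fold higher, against 4.73% and 3.29% of all genes. Of the 236 genes 2-fold higher in E16.5 null skin, 26 of 124 measured in dermis, 21.0%, were 2-fold higher and 22, 17.7%, were 2-fold lower, against 14.01% and 13.5% of all genes. In epidermis 29 of 139, 20.9%, were 2-fold higher and 9, 6.47%, were 2-fold lower. Keratinocyte and fibroblast markers moved with the dermis comparison: Krt5 was at 6265 FPKM in the control dermis library and 1806 FPKM in the mutant one, and Dcn at 53.8 and 358 FPKM. The part of such a difference in tissue makeup in the dermis counts was not tested.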

How the data were processed

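Whole-skin RNA of 2 wild-type and 2 Cyp26b1-/- libraries at E16.5 was extracted with Trizol and made into libraries with an Illumina TruSeq kit from 1 ug total RNA, per the labels' protocols. The submitters' processing notes name Cuffdiff 1.3.0, Cufflinks, TopHat 1.3.2 and Bowtie 0.12.7.0 with mm9; settings and use of strand are not given in the sources here. Per the file headers, each table holds 1 row per RefSeq transcript. The authors deposited FPKM to 2 decimals, pooled over the 2 libraries of a group, so leaving out a library was not possible. The authors also deposited, per transcript, a status, a score (the Cuffdiff statistic) with p-value and q-value, and a log2 fold that uses no pseudocount.

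From these, FPKM were summed per symbol, genes with a row of status HIDATA, FAIL or LOWDATA were dropped, at least 1 FPKM was required in 1 group, and 1 was added before taking log2. Dividing a transcript's deposited fold by its statistic gave the SE (median 0.188 over 19262 transcripts); a two-sided normal p from that statistic differed from the deposited p-value by at most 0.00401. The median fold of 0.475 was subtracted and Benjamini-Hochberg adjustment run over these transcripts. For another 322 tested transcripts, at 0 FPKM in 1 group, the authors' call was used. A gene was called when at least 1 of its transcripts was called and none the other way; in 110 called genes the summed relative log2 had the opposite sign. The test was also tried on simulated data. Python 3.11.15, pandas 2.3.3, numpy 2.4.6, scipy 1.17.1 and matplotlib 3.10.9 were used. Sequences came from RefSeq promoter windows (GRCm38.p6), in which 9726 of the 14154 genes were found.

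The members and the 62 gene lists were chosen with earlier results of these data known. Named were Cyp26b1, all members of lists with at most 10 measured, of longer lists the 8 with the largest fold and the 4 with the highest FPKM, and outside the lists the 40 highest and 40 lowest called genes with 1 transcript. Aldh1a2, Aldh1a3, Crnn, Cryab, Edar, Fos, Grhl3, Hoxc10, Hoxd1, Klk11, Meis1, Nr2f1, Nr2f2, Padi1, Rdh11, Sox2, Sox9, Sp7, Tgm1 and the genes of the closing section's later lists were named after their values were seen. Values of some genes that the rule selects are not reported here, and they stay in the counts. Alternatives were another scaling, the authors' q, a 2-fold rule, other level filters and pseudocounts, kept failed rows, a stricter adjusted p and, chosen after seeing the data, the median of genes of like GC content.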

Additional observations from a re-analysis of the deposited data

How the results depend on the processing

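No paired analysis was possible because the deposited columns pool the libraries of a group, and for the same reason leaving out each replicate was not run. With the authors' q and nothing subtracted, 8504 genes counted as higher and 467 as lower, and the share of calls upward was 94.8% in place of 44.6%. With a 2-fold rule and no test, 236 were higher and 403 lower. Subtracting the ratio of 75th percentiles, other level filters, keeping failed rows, an adjusted p below 0.01 or the median of genes of like GC content gave 850 to 1319 higher and 1010 to 1622 lower; the last kept 985 of the 1196 higher and 1133 of the 1485 lower calls. Folds were lower for genes richer in GC (Spearman rho = -0.34 across the 13426 genes, 94.9%, with a value; genes are not independent). Of 66 list medians 28 changed sign with nothing subtracted and 7 with the GC-matched median. With 5 or 0.1 added in place of 1, 134 or 68 of 296 named genes moved by at least their SE, and no called gene among them changed sign; the keratin-associated protein median of -1.66 became -4.20 with 0.1. Dsc1, called lower, had a log2 difference of 0.035 with nothing subtracted. Spread between embryos and read depth set an unknown limit on all values.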

Other observations

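Genes of cholesterol and fatty acid synthesis were higher in null skin. The list was written after the values were seen and has no test of its own. Of 21 measured genes 17 rose and 1 fell relative to the median gene, against 8.45% and 10.5% of all genes, and the authors' deposited table has 19 higher and 1 lower. The summed level went from 828 to 1771 FPKM, and the median relative log2 was 0.62. Squalene epoxidase, Sqle, an enzyme of cholesterol synthesis, rose from 56.1 FPKM to 138. Insig1, which holds the SREBP activators of these genes in check and is itself their target, rose from 17.8 FPKM to 69.7 (1.49). Slc25a1, the carrier that exports citrate from mitochondria, rose from 35.5 FPKM to 125, and fatty acid synthase, Fasn, from 40.9 FPKM to 78.6. Dhcr7, of the last steps of cholesterol synthesis, fell from 58.3 FPKM to 38.7 (-1.01). The regulators Srebf1 (43.7 and 47.5 FPKM) and Srebf2 (57.2 and 95.6 FPKM) did not pass the test.

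Other sets noticed in the same way were genes of mucosal surfaces and of oxidation. The hydrogen peroxide-producing oxidase gene Duox1 rose from 0.79 FPKM to 12.1, and its maturation factor gene Duoxa1 rose from 2.76 FPKM to 24. Of 7 measured serine protease genes of mucosal epithelia 5 rose and 1 was called lower (6 higher and 0 lower by the authors' q), with Prss27 at 6.08 and 48.1 FPKM and Prss22 at 2.34 and 12.2 FPKM. The aldehyde oxidase gene Aox4, whose product can turn retinaldehyde into retinoic acid, rose from 117 FPKM to 386 (1.29), while Aox1 (1.63 and 1.74 FPKM) and Aox3 (0.62 and 1.25 FPKM) did not pass the test.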
